A study of Homo sapiens with 6 samples.

Results

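Collagens and laminins are the main protein scaffolds of the extracellular matrix, and the genes described here encode their chains. The chains were taken by symbol, as every annotated gene named COL, number, A, number or LAMA, LAMB or LAMC with a number, which gave 41 collagen and 8 laminin chains, 49 of the 17687 gene symbols on the array. Each had 1 probe set. Other human chains were not analysed here. Levels were measured in K562, an established human erythroleukaemia line of suspension cells, on 6 arrays, 3 for the line with a miR-543 vector and 3 for the line with a control vector. The series title names the DNA demethylases TET1 and TET2 as targets of this microRNA in the setting of myelofibrosis, a disease in which the bone marrow fills with collagen and reticulin. The sources used here do not name the vector, its promoter, the time after transfer or whether the cells were clones or pools. Nor is it stated that replicates came from separate cultures, and the p-values then measure only array-to-array spread, which may be technical.

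A collagen is a trimer of alpha chains wound into a triple helix, and a laminin is a cross-shaped trimer of 1 alpha, 1 beta and 1 gamma chain. Fibrillar collagens give tissues tensile strength, type IV collagen and laminins build the sheets called basement membranes, type VI collagen forms beaded filaments around cells, and the FACIT, transmembrane and multiplexin collagens link these networks to each other or to cells. In bone marrow most fibrillar collagen is made by stromal cells, and blood cells mainly meet these proteins through surface receptors. A microRNA lowers its targets by pairing of its seed, bases 2 to 8, with messenger RNAs. The mature sequence of the microRNA after which the vector is named is shown with the seed in capitals (RefSeq, GRCh38.p14, chr14:101032033-101032054, plus strand).
hsa-miR-543: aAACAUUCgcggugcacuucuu
Among 2370 mature human microRNAs in that table, 0 others had the same seed.

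Values are log2 signals per probe set, and no call of present or absent was made for any of them. The arrays were closely alike, with medians of 5.99 to 6.01 and with Pearson's r over the probe sets (genes are no independent replicates) of 0.9931 to 0.9951 between the vectors and 0.9945 to 0.9957 within them. A change is the miR-543 level minus the control level, fitted with limma on all 21448 probe sets, and a chain was called at a Benjamini-Hochberg adjusted p under 0.05 over all of them. By this rule 122 probe sets (0.569%) differed, of which 28 (0.131%) rose and 94 (0.438%) fell. The labelled cell type was checked on a list of 12 erythroid markers, of which 8 were measured. All 8, including GATA1, TAL1, TFRC and the embryonic globin genes HBZ and HBE1, lay above the array median, between 6.39 and 15.8. In bulk RNA, fewer cells expressing a gene and less RNA per cell cannot be told apart.

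The chains were split at the array median, 5.998 for the mean over the 6 arrays. At or above it lay 9 chains: LAMB1, LAMA4, COL1A2, COL4A2, COL6A3, COL6A5, COL15A1, COL18A1 and COL23A1. Below it lay 40 chains, including COL1A1, COL2A1 and COL4A1. COL4A2 (6.10) and LAMA4 (6.13) were the lowest inside the split, and COL26A1 (5.87) and COL20A1 (5.86) the highest outside it. Signals of different probe sets depend on their probes, so these levels sort the chains only against the array and not against each other.

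LAMB1 rose in cells with the miR-543 vector and was the only one of the 49 chains called. It encodes the beta chain of the most widespread laminins (TC0700012224.hg.1, chromosome 7). LAMB1 had log2 signals of 8.78, 8.57 and 8.69 with the miR-543 vector, against 7.68, 7.88 and 7.95 with the control vector. All 3 miR-543 arrays lay above all 3 control arrays, and the gap between the groups was wider than the range within either. LAMB1 averaged 8.68 ± 0.11 and 7.84 ± 0.14 (SD, n = 3 each), a log2 change of 0.84 (SE 0.14) or a 1.79-fold rise (95% interval 1.44 to 2.24), with a limma adjusted p of 0.035. That is 1 rise among 49 chains beside 0.131% of all probe sets, and 0 chains were called as lower. The call did not survive the loss of any single array: leaving out miR-543 replicate 1, 2 or 3 gave a limma adjusted p of 0.123, 0.0877 or 0.11, and leaving out control replicate 1, 2 or 3 gave 0.169, 0.108 or 0.0808. The log2 change lay between 0.77 and 0.90 in these fits.

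None of the other 7 laminin chains was called. LAMB2, the beta chain of laminins at the kidney filter and the nerve-muscle junction, lay below the array median, with 5.45, 5.76 and 5.83 with the miR-543 vector, against 5.20, 5.34 and 4.91 with the control vector. The groups did not overlap, but the log2 change of 0.53 (SE 0.17) was not called (limma adjusted p = 0.288). LAMA4, an alpha chain of vessel wall laminins, had 6.30, 6.01 and 6.11 with the miR-543 vector, against 6.12, 6.14 and 6.09 with the control vector. These arrays overlapped, and the log2 change was 0.02 (95% interval -0.29 to 0.33). The widely used gamma chain LAMC1 had a log2 change of 0.30 at a mean signal of 3.13, and LAMA1, LAMA2, LAMB4 and LAMC3, all below the median, had changes between -0.16 and 0.10. Across the 8 laminin chains 5 lay above 0 and 3 below, with a median log2 change of 0.06, against 0.01 over all probe sets.

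**Figure D1:**
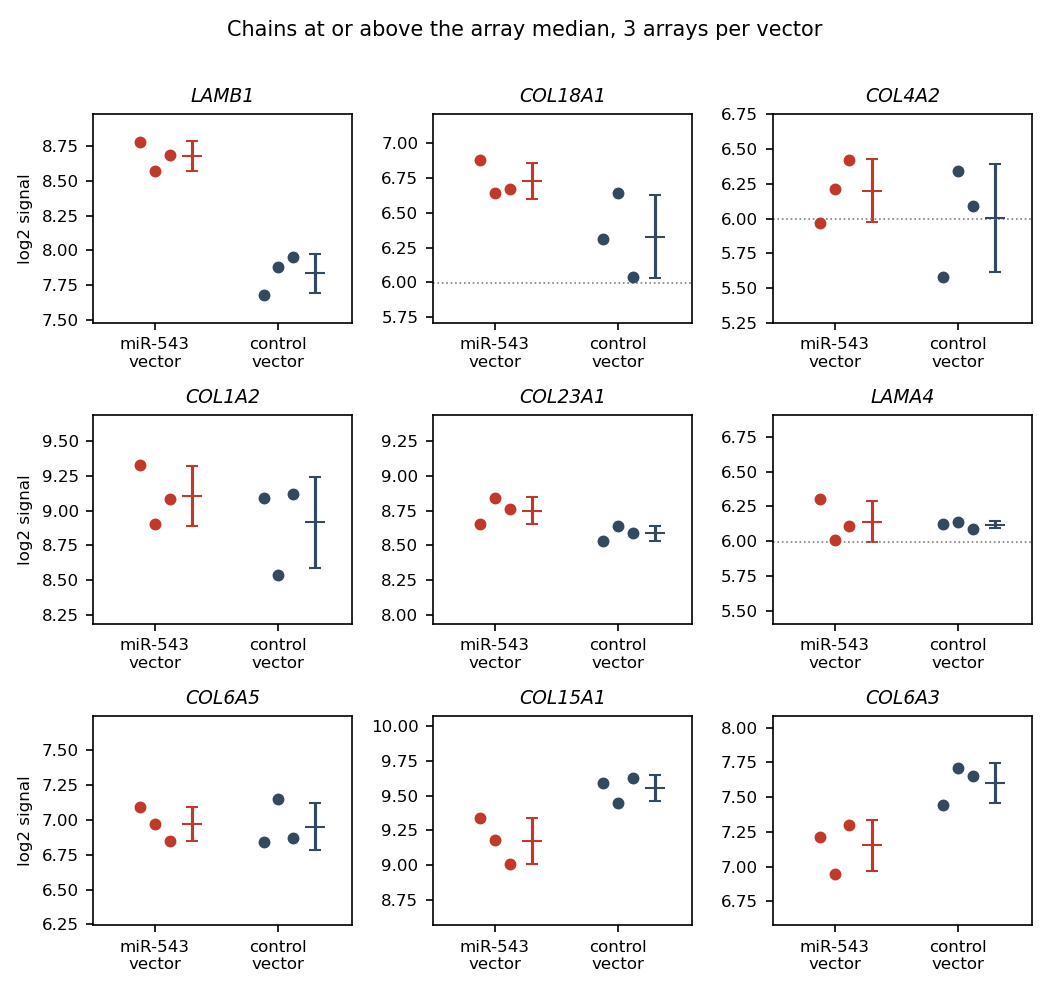
Log2 signal (vertical axes, all of the same span) of the 9 chains at or above the array median, with 1 point per array, the miR-543 vector on the left in red and the control vector on the right in dark blue, and the mean ± SD beside each group of 3. The dotted line is the array median where it falls in the panel. LAMB1 has the groups furthest apart (8.68 and 7.84), COL15A1 and COL6A3 lie lower on all 3 miR-543 arrays, and COL23A1 lies higher on all 3.

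Among the 7 collagen chains at or above the median none was called, and the changes ran both ways, from -0.45 to 0.40. COL6A3 encodes the long chain of type VI collagen. It had 7.21, 6.95 and 7.30 with the miR-543 vector, against 7.44, 7.71 and 7.65 with the control vector. Every miR-543 array lay below every control array, and the log2 change was -0.45 (SE 0.15, 95% interval -0.79 to -0.11, limma adjusted p = 0.337). COL15A1, a multiplexin found where basement membranes join the tissue beneath, had 9.34, 9.18 and 9.01 with the miR-543 vector, against 9.59, 9.45 and 9.63 with the control vector. Its groups did not overlap either, and the log2 change was -0.38 (SE 0.15, 95% interval -0.70 to -0.06, limma adjusted p = 0.399).

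The other multiplexin, COL18A1, whose tail is released as endostatin, had 6.88, 6.64 and 6.67 with the miR-543 vector, against 6.31, 6.64 and 6.04 with the control vector. One control array equalled the lowest miR-543 array, and the log2 change was 0.40 (SE 0.17, 95% interval 0.01 to 0.79, limma adjusted p = 0.46). It was 0.26 without control replicate 3 and 0.56 without control replicate 2. COL23A1, a transmembrane collagen, had 8.65, 8.84 and 8.76 with the miR-543 vector, against 8.53, 8.64 and 8.59 with the control vector. The groups were separated by 0.01 between the nearest arrays, and the log2 change was 0.16 (SE 0.13, limma adjusted p = 0.73).

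COL1A2, which pairs with COL1A1 in type I collagen, the main collagen of bone and scar, had 9.33, 8.90 and 9.08 with the miR-543 vector, against 9.09, 8.54 and 9.12 with the control vector. The groups overlapped, with a log2 change of 0.19 (95% interval -0.24 to 0.61). Its partner COL1A1 lay below the array median, at 4.41, 4.68 and 4.48 with the miR-543 vector, against 4.44, 4.02 and 4.68 with the control vector, a log2 change of 0.14 (limma adjusted p = 0.849). COL4A2, a chain of the common type IV network, had 5.97, 6.21 and 6.42 with the miR-543 vector, against 5.58, 6.34 and 6.09 with the control vector, which overlapped (log2 change 0.20, 95% interval -0.26 to 0.65). COL6A5, a further type VI chain, averaged 6.97 ± 0.12 and 6.95 ± 0.17 (SD, n = 3 each), which is a change of 0.02 on the log2 scale (95% interval -0.31 to 0.35). For COL1A2, COL4A2, COL6A5 and LAMA4 the sign of the change turned when 1 array or another was left out.

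**Figure D2:**
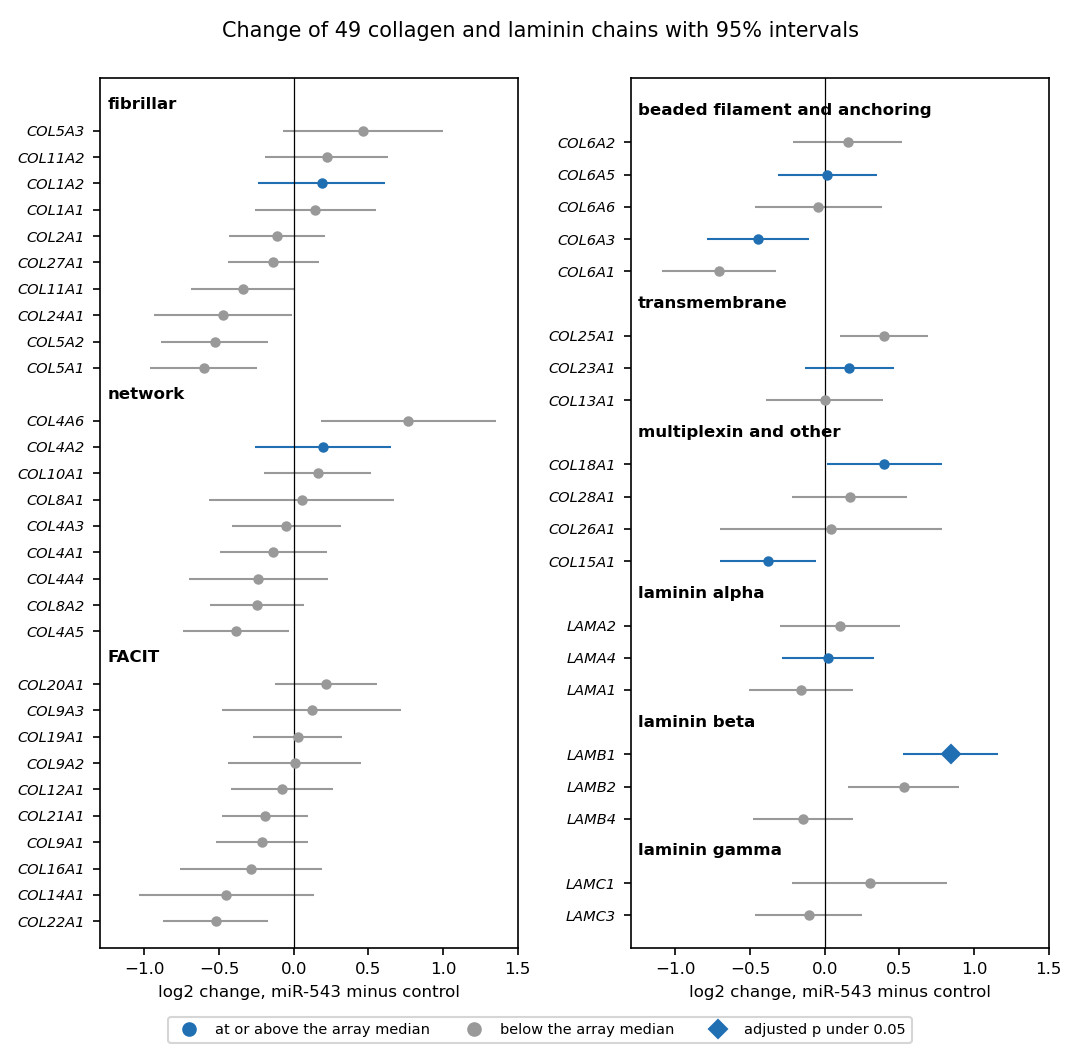
Log2 change (horizontal axis, miR-543 vector minus control vector) of the 49 chains by class, as points with 95% intervals from limma. Blue marks the 9 chains at or above the array median, grey the 40 below it and a diamond the called chain, LAMB1, at 0.84. Intervals that leave out 0 are found on both sides and in most classes.

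Below the array median 0 of 40 chains were called, and 9 had an unadjusted p under 0.05, 6 of them lower and 3 higher with the miR-543 vector. Over all 49 chains the count was 13, or 26.5%, beside 10.6% of all probe sets, and the split into dim and bright probe sets gave 22.5% of the 40 chains beside 8.43%, and 4 of the 9 chains beside 12.8%. These shares describe the chains and carry no test. Of the 13 chains 8 were lower and 5 higher. The groups did not overlap for 14 chains (28.6%), beside 15.4% of all probe sets. Of the 49 chains 10 were lower on all 3 miR-543 arrays, beside 1609 of 21448 probe sets (7.5%). Higher on all 3 were 4 of the 49, beside 1692 of 21448 (7.89%).

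COL6A1, a chain that type VI collagen needs to assemble, had 3.58, 4.06 and 3.50 with the miR-543 vector, against 4.35, 4.52 and 4.39 with the control vector. All miR-543 arrays lay lower, and the log2 change was -0.71 (SE 0.17, limma adjusted p = 0.154). COL6A2, its neighbour on chromosome 21 and partner in the trimer, had a log2 change of 0.15 (limma adjusted p = 0.807). Of the 5 type VI chains measured, COL6A1 and COL6A3 therefore had non-overlapping groups and COL6A2, COL6A5 and COL6A6 did not. That is 40% of 5 chains, beside 15.4% of all probe sets, and carries no test. The 5 had a median change of -0.04.

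Type V collagen, which sets the width of collagen fibrils, had 2 chains lower on all miR-543 arrays. This pattern was found for 7.5% of all probe sets, and for 521 of the 10724 below the array median, where these chains lay. COL5A1 had 4.89, 4.46 and 4.42 with the miR-543 vector, against 5.12, 5.28 and 5.18 with the control vector. Its log2 change was -0.60 (SE 0.16, limma adjusted p = 0.202). COL5A2 had 4.22, 4.17 and 4.14 with the miR-543 vector, against 4.44, 4.70 and 4.98 with the control vector, a log2 change of -0.53 (SE 0.16, limma adjusted p = 0.276). The remaining type V chain, COL5A3, pointed the other way, with a log2 change of 0.46 (limma adjusted p = 0.548) that included 1 miR-543 array at 5.42 and the other two at 4.51 and 4.58. COL24A1, a fibrillar chain of developing bone, had 3.75, 3.78 and 3.21 with the miR-543 vector, against 3.86, 3.87 and 4.43 with the control vector. The groups were apart by 0.08 at the nearest arrays (log2 change -0.47, SE 0.21, limma adjusted p = 0.465). The change was -0.29 without miR-543 replicate 3 and -0.285 without control replicate 3. The 10 fibrillar chains had a median log2 change of -0.13, with 4 above 0 and 6 below.

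COL22A1, a FACIT collagen of tissue junctions such as muscle and tendon, had 3.40, 3.33 and 3.58 with the miR-543 vector, against 3.74, 3.96 and 4.18 with the control vector. All miR-543 arrays lay lower (log2 change -0.52, SE 0.16, limma adjusted p = 0.27). Of the 10 FACIT chains, all below the array median, 6 lay below 0. The groups of COL9A1 and COL21A1 also did not overlap, at log2 changes of -0.21 and -0.19. Non-overlapping groups made up 30% of the 10 FACIT chains, without a test. The share was 15.4% of all probe sets and 11% of those below the array median. COL25A1, a transmembrane collagen known from neurons and amyloid plaques, was higher on all miR-543 arrays, with 4.70, 4.76 and 4.62 with the miR-543 vector, against 4.31, 4.25 and 4.33 with the control vector (log2 change 0.40, SE 0.13, limma adjusted p = 0.317). The 3 transmembrane chains measured had changes of 0.40 for COL25A1, 0.16 for COL23A1 and 0.00 for COL13A1.

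**Figure D3:**
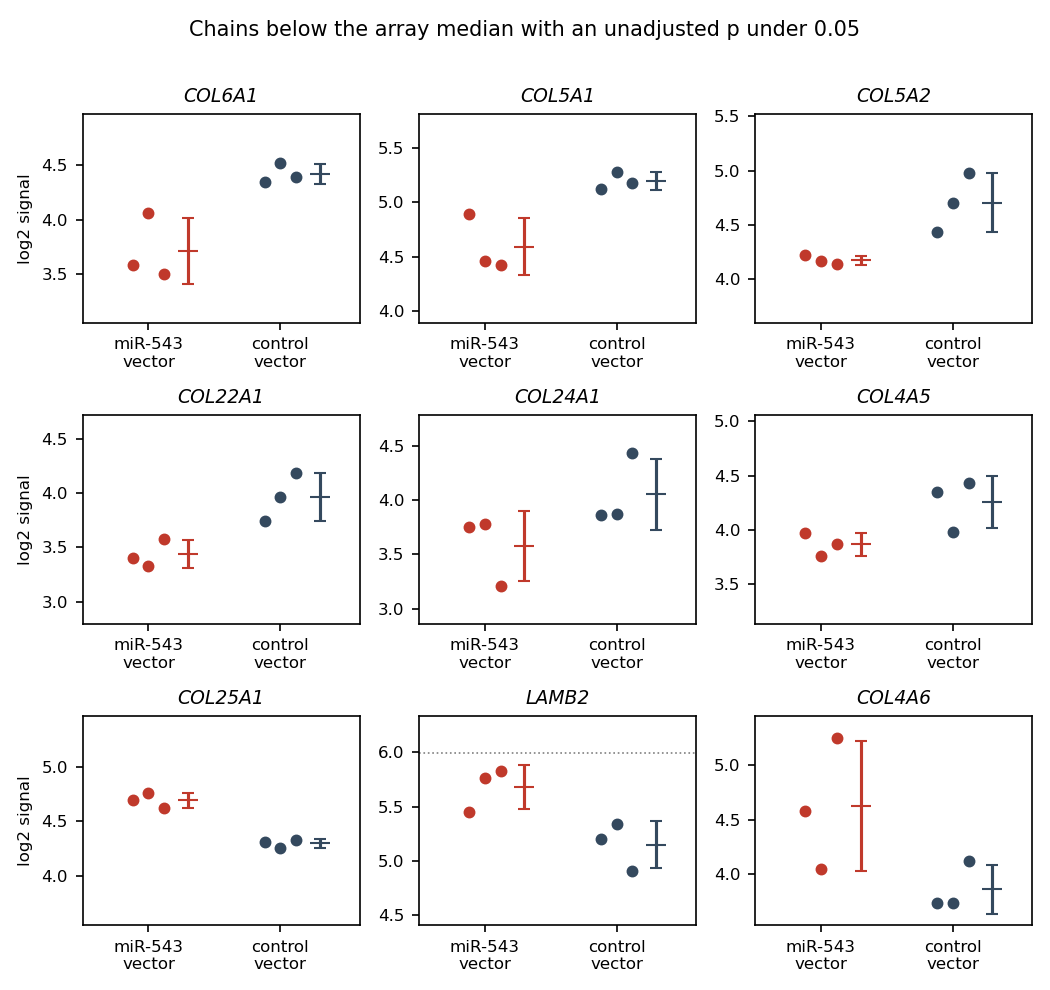
Log2 signal (vertical axes, all of the same span) of the 9 chains below the array median with an unadjusted p under 0.05, with 1 point per array, the miR-543 vector on the left in red and the control vector on the right in dark blue, and the mean ± SD beside each group of 3. The upper 6 panels show chains that are lower with the miR-543 vector, COL6A1 at 3.71 and 4.42 among them, and the lower 3 show COL25A1, LAMB2 and COL4A6, which are higher. None was called.

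The X-linked chains COL4A5 and COL4A6 form a type IV network of specialised basement membranes, and their genes lie head to head. COL4A6 had 4.58, 4.05 and 5.25 with the miR-543 vector, against 3.73, 3.73 and 4.12 with the control vector, a log2 change of 0.77 (SE 0.26, limma adjusted p = 0.344). The change was 0.46 without miR-543 replicate 3 and 1.06 without miR-543 replicate 2. One miR-543 array lay within the control range, and the miR-543 SD of 0.60 was the widest of the 9 chains. COL4A5, the chain mutated in X-linked Alport syndrome, had 3.97, 3.76 and 3.87 with the miR-543 vector, against 4.35, 3.98 and 4.43 with the control vector, a log2 change of -0.39 (SE 0.16, limma adjusted p = 0.428). Its groups were separated by 0.01 at the nearest arrays. The 2 neighbours thus had changes of opposite sign at signals near the lower quartiles of the arrays, 3.98 to 4.03.

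Of the chain genes, 7 pairs were direct neighbours among protein-coding genes, and the change of each was set against that of its neighbour. The difference was 1.15 for COL4A6 minus COL4A5, 0.99 for LAMB1 minus LAMB4 and -0.86 for COL6A1 minus COL6A2, each with a two-sided exact permutation p of 0.1, the smallest that 3 arrays against 3 can give (0.233 adjusted over the 7 pairs). In the pairs COL4A2 and COL4A1, COL4A4 and COL4A3, COL9A1 and COL19A1, and COL6A6 and COL6A5 the differences lay between -0.24 and 0.33, with exact permutation p-values of 0.2 to 0.7. This design cannot show a difference within a pair at 0.05. Promoter windows in the RefSeq table, 250 bases before to 50 after a start, overlapped by 226 bases for COL4A1 and COL4A2, by 121 for COL4A5 and COL4A6 and by 82 for COL4A3 and COL4A4.

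The remaining 31 chains below the median had log2 changes between -0.45 and 0.46, 14 above 0, 16 below and COL13A1 at 0.00, and all 31 had limma adjusted p-values of at least 0.474. COL14A1 was the lowest of them at -0.45 (SE 0.26). For the 9 chains at or above the median the median log2 change was 0.16, for the 40 chains below it -0.06, and for all probe sets 0.01. The spread between replicates was smaller for the brighter chains, with a median SD of 0.15 against 0.20. The same held over all probe sets, with 0.17 at or above the array median and 0.22 below it. In simulated arrays, with a spread drawn from the limma fit of all probe sets, 4% of probe sets changed by 0.5 were called. Of those changed by 1, 78% were called. These shares belong to that simulation and were not worked out for the chains.

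**Figure D4:**
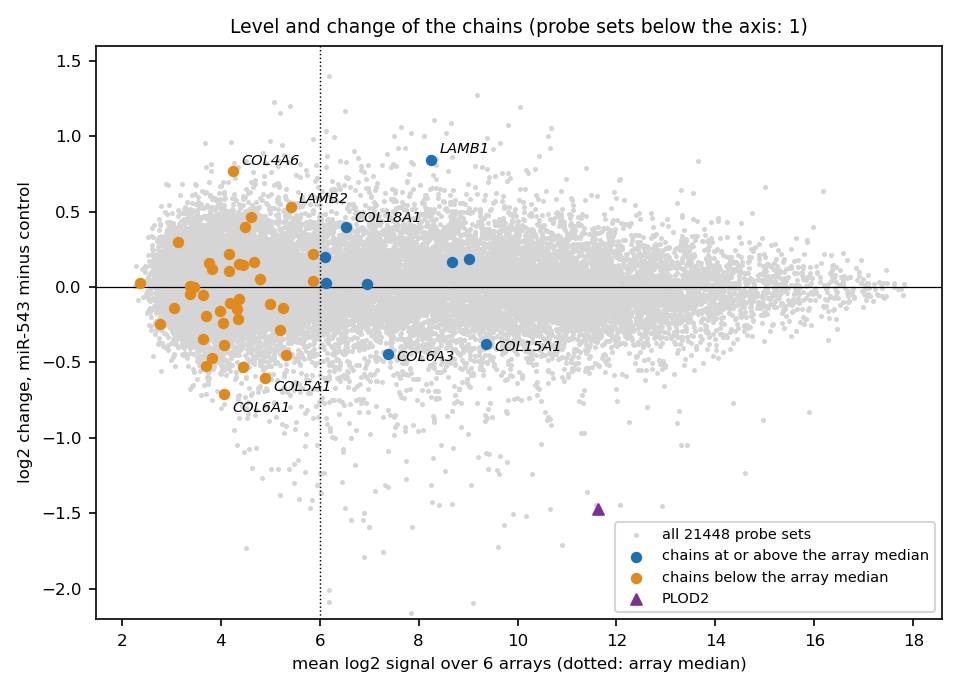
Log2 change (vertical axis, miR-543 vector minus control vector) against the mean log2 signal over the 6 arrays (horizontal axis) for the 21448 probe sets in grey (1 of them lies below the axis), the 9 chains at or above the array median (dotted line) in blue, the 40 chains below it in orange and PLOD2 as a purple triangle. LAMB1 at 0.84 is the highest of the chains, COL6A1 at -0.71 the lowest, and PLOD2, an enzyme that modifies collagen, lies at -1.47.

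The study concerns enzymes that act on methylated CpG, so the CpG content of the promoter windows is given as a sequence feature. A window was found for 36 of the 49 chains (48 windows). LAMB1 is shown as the called chain, COL6A3 as the one with the fewest CpG among the 7 chains at or above the median that had a window, and PLOD2 as the called enzyme described further on. Capitals mark each CG, which reads the same on both strands. The windows are those of RefSeq on GRCh38.p14, each on the minus strand: chr7:108003112-108003411 for LAMB1, chr2:237414115-237414414 for COL6A3 and chr3:146161135-146161434 for PLOD2.
LAMB1: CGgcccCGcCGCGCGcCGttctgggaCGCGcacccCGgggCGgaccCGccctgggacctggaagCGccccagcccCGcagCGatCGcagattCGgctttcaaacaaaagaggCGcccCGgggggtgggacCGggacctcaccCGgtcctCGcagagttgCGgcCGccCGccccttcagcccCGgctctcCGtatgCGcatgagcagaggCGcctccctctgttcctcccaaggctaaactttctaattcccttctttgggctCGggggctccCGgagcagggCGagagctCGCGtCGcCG
COL6A3: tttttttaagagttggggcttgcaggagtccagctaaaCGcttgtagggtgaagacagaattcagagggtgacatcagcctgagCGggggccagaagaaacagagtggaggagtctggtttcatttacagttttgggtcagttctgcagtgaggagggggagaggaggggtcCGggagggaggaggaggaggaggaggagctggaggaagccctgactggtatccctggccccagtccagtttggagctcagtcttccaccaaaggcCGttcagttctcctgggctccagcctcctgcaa
PLOD2: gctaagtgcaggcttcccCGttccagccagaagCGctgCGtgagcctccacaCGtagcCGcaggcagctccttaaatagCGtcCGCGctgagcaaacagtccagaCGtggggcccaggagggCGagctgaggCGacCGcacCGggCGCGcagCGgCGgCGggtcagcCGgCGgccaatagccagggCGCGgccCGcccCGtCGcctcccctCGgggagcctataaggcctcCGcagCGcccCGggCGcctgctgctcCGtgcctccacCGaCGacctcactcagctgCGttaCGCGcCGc
The LAMB1 window holds 35 CG, a number reached by 14.1% of all 34943 windows, and the PLOD2 window holds 37, reached by 11.3%. The COL6A3 window holds 4, and 29.7% of all windows hold as few or fewer. COL15A1 and COL4A2 had 45 each, LAMA4 had 8, and the 2 windows of COL18A1 had 46 and 10. The median was 31.5 for the 8 windows of chains at or above the array median, 16 for the 40 windows of chains below it and 14 for all windows, of which 96% hold at least 1. The 8 windows belong to 7 chains and the 40 to 29, and the windows of all genes were not split by level. CG-rich windows were thus found for LAMB1, which was called, and for COL15A1, COL4A2 and COL18A1 (1 of its 2 windows), which were not. COL6A3, also not called, had a window with few CG. A relation between CG content and change was not tested. Methylation was not measured in these data.

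Genes that act on the chains were taken from 4 lists, on collagen assembly, receptors, basement membrane partners and turnover, with 66 of 71 genes measured. Of the 66, 1 was called, beside 0.569% of all probe sets. The lists were chosen with earlier results of these data known, so this share carries no test. PLOD2, the lysyl hydroxylase that prepares the ends of collagen chains for stable cross-links, had 10.93, 10.82 and 10.90 with the miR-543 vector, against 12.44, 12.55 and 12.07 with the control vector. The nearest arrays of the groups were 1.14 log2 units apart. PLOD2 averaged 10.9 ± 0.057 and 12.4 ± 0.25 (SD, n = 3 each), a log2 change of -1.47 (SE 0.16, 95% interval -1.82 to -1.12) or 2.77-fold lower, with a limma adjusted p of 0.00336. It was called in all 12 alternative fits (adjusted p 1.31e-05 to 0.0256). Its relatives PLOD1 and PLOD3 had log2 changes of -0.03 and 0.26 and were not called.

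The other 32 measured assembly genes had log2 changes between -0.57 and 0.36, and the list had 12 members above 0 and 21 below, with a median of -0.03. CRTAP, which works with P3H1 and PPIB to modify prolines of new chains, had 14.02, 14.09 and 13.71 with the miR-543 vector, against 14.45, 14.24 and 14.43 with the control vector. PCOLCE, which helps to trim procollagen, had 8.44, 8.40 and 7.83 with the miR-543 vector, against 8.70, 8.63 and 8.80 with the control vector. Both were lower on all 3 miR-543 arrays, without a call (log2 changes of -0.43 and -0.49, limma adjusted p = 0.36 and 0.383). Non-overlapping groups made up 15.2% of the 33 assembly genes measured, 4 lower and 1 higher, beside 15.4% of all probe sets. LOXL4, a cross-linking oxidase below the array median, had a log2 change of 0.36 (limma adjusted p = 0.414). The prolyl hydroxylase subunits P4HA1, P4HA2 and P4HB and the collagen chaperone SERPINH1 had changes of -0.03, 0.03, -0.04 and 0.12.

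Of 15 measured receptors 12 lay below 0 and 3 above (median -0.20), and 0 were called. Of all 21448 probe sets 10095 lay below 0 and 11217 above. Among the receptors 11 lay below the array median, and 1 had an unadjusted p under 0.05 (6.67%, beside 10.6% of all probe sets). OSCAR, a collagen receptor of myeloid cells, had 5.66, 5.49 and 5.59 with the miR-543 vector, against 5.89, 6.08 and 6.09 with the control vector (log2 change -0.44, limma adjusted p = 0.281). ITGB1, the beta subunit of most integrins that bind collagen or laminin, had 14.06, 13.85 and 14.03 with the miR-543 vector, against 14.33, 14.42 and 14.13 with the control vector. All 3 miR-543 arrays lay lower for both, and ITGB1 had a log2 change of -0.31 (limma adjusted p = 0.488). With ITGA6, non-overlapping groups were found for 3 of 15 receptors (20%), beside 15.4% of all probe sets. All 3 were lower, beside 7.5% of all probe sets. These shares carry no test. The leukocyte receptor LAIR1 and the endocytic receptor MRC2 had changes of -0.38 and -0.28. Of 6 basement membrane partners 5 lay above 0 (median 0.11), with 0.19 for NID1, 0.18 for AGRN, 0.14 for HSPG2 and -0.12 for NTN4, and 0 were called. Of 12 turnover genes 6 lay above 0, 5 below and MMP3 at 0.00 (median 0.04), with 0.29 for the inhibitor TIMP4, 0.30 for the collagen-cutting protease CTSK, 0.31 for MMP8 and -0.18 for MMP14, and 0 were called. Over the 4 lists, 6 of 66 genes had an unadjusted p under 0.05 (9.09%, beside 10.6% of all probe sets).

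**Figure D5:**
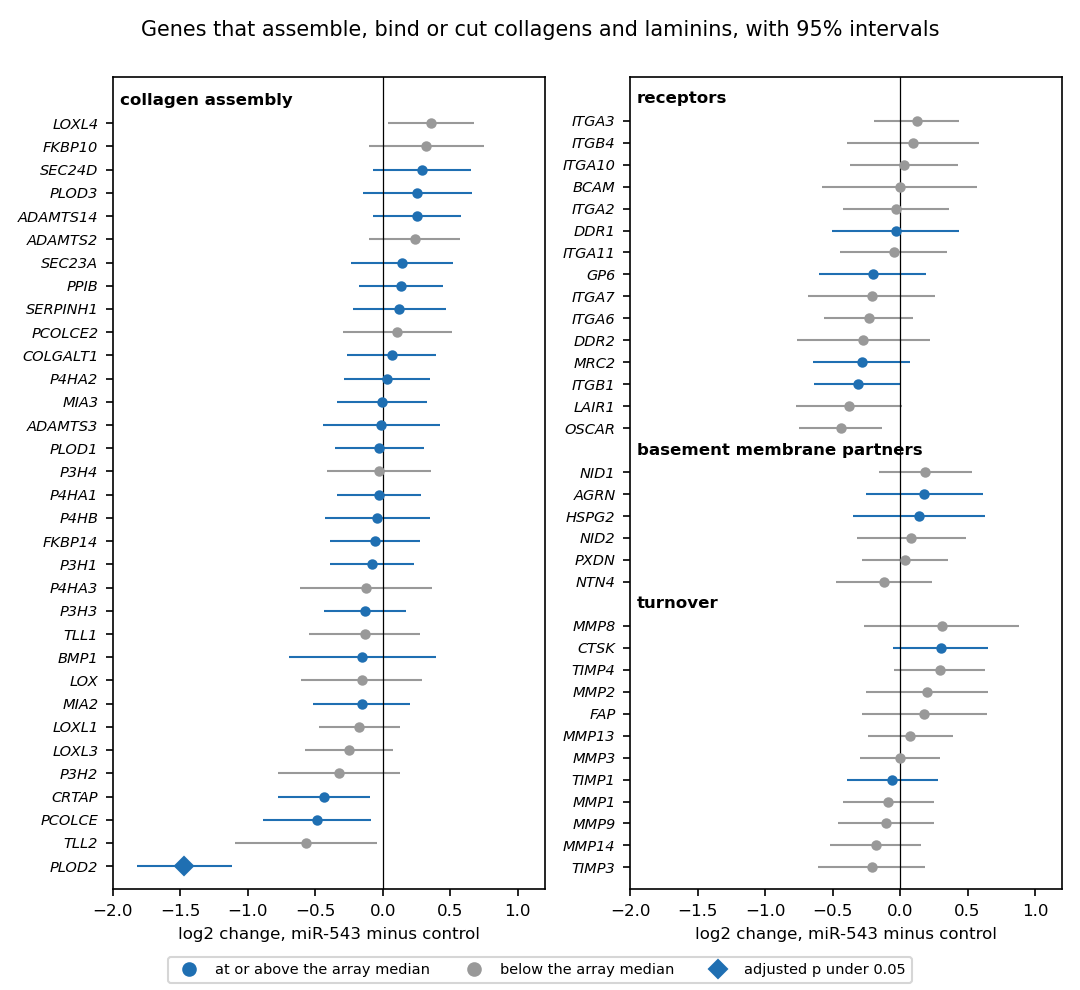
Log2 change (horizontal axis, miR-543 vector minus control vector) of 66 genes that assemble, bind or cut collagens and laminins, as points with 95% intervals from limma. Blue marks genes at or above the array median, grey those below it and a diamond the called gene. PLOD2 at -1.47 stands alone at the low end, and the others lie between -0.57 and 0.36.

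Markers of cells that make these matrix proteins were checked as lists. All 10 fibroblast markers lay below the array median, between 3.34 and 5.48. Their mean log2 signal was 4.04 to 4.12 on the miR-543 arrays, against 3.81 to 3.97 on the control arrays. Of these 10 genes 9 lay above 0 (median 0.21), with 0.32 for LUM, 0.40 for PDGFRB, 0.28 for MXRA5 and 0.28 for PDGFRA, and 0 were called. Of all 21448 probe sets 11217 lay above 0. All 6 endothelial markers lay below the array median, with a median log2 change of 0.08 and 0 calls (TEK 0.38, CDH5 0.12, VWF 0.10, CLDN5 0.07). Of 6 epithelial markers 5 lay above it, among them KRT8 and EPCAM, with a median change of 0.13 and 0 calls (CLDN7 0.30, EPCAM -0.24, KRT8 0.15, KRT19 -0.15). The 8 erythroid markers had a mean log2 signal of 12.05 to 12.12 on the miR-543 arrays, against 11.82 to 11.95 on the control arrays, and 7 of them lay above 0, with a median change of 0.12 and 0 calls (KLF1 0.66, TAL1 0.41, HBZ 0.32, HBE1 0.10). The part of these markers in the chain values was not tested.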

How the data were processed

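RNA of 6 K562 samples was measured on single-colour arrays, and groups came from the sample titles. The deposited values are log2 signals per probe set, rounded to 2 decimals. The authors made them, per the submitters' processing notes, with Transcriptome Analysis Console 4.0 and RMA, which corrects background, normalizes between arrays and tends to compress changes of dim probe sets. The RMA variant, annotation release and genome build are not given in the sources used here. The number of arrays limits the precision.

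All 17709 named probe sets matched the RefSeq gene table of GRCh38.p14, which also gave gene neighbours. limma 3.58.1 in R 4.3.3 (lmFit, eBayes, no trend, block or filter) was fitted to all 21448 probe sets, two-sided, with Benjamini-Hochberg adjustment over all, and tested on simulated data. Named were all chains at or above the array median, those below it with an unadjusted p under 0.05 or among the 6 largest changes there, and up to 4 genes per list by smallest p. Other partners and relatives (such as COL1A1, COL5A3 and COL6A2) were named after their values were seen. The members and the 8 gene lists, compiled from general knowledge, were chosen with earlier results of these data known. Alternatives were rescaling, trended robust variances, filters on dim probe sets, a replicate block, leaving out each array and other splits by level.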

Additional observations from a re-analysis of the deposited data

How the results depend on the processing

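LAMB1 was the 1 chain called, also with equal medians, quantile normalization, trended robust variances and both filters on dim probe sets (5 of its 12 alternative fits, adjusted p 0.0108 to 0.169 over all 12), and it rose in all 12. Without 1 array the number of chains called was 0 in every fit, that of chains with an unadjusted p under 0.05 was 9 to 13, and that of all called probe sets 34 to 59, beside 122. PLOD2 stayed the 1 pathway gene called. The median log2 change without 1 array was 0.025 to 0.17 for the 9 brighter chains and -0.14 to -0.018 for the 40 dimmer ones. With trended robust variances 252 probe sets were called. The filter at the 50th percentile tested only the 9 brighter chains, of which 4 had an unadjusted p under 0.05. Leaving out 1 array turned the sign of the log2 change for COL6A5 (-0.043 to 0.12), LAMA4 (-0.057 to 0.088), COL4A2 (-0.015 to 0.37) and COL1A2 (-0.0017 to 0.29). Each chain had 1 probe set, so averaging probe sets changed nothing. Titles give both groups replicate numbers 1 to 3. Same-numbered arrays had correlations of their deviations of 0.095, -0.053 and 0.018, and differently numbered arrays had -0.094 to 0.066. Whether same-numbered arrays were handled together is not stated and cannot be told from these values. With the replicate block 71 probe sets and 0 chains were called, with an adjusted p of 0.109 for LAMB1. Dim probe sets limit the 40 lower chains: signal over background was not tested, and the size of their changes is uncertain.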
